A study of Mus musculus with 15 samples.

Results

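The alcohol and aldehyde dehydrogenases examined here are 9 genes of hepatic alcohol, retinol and aldehyde oxidation, Adh1, Adh4, Adh5, Rdh7, Aldh1a1, Aldh1a7, Aldh2, Aldh1b1 and Aldh3a2. They were chosen by gene symbol, with earlier results of these data known. They are 9 of the 55984 gene symbols in the count table, and all 9 were among the 17488 genes expressed highly enough to be tested. They were measured by RNA-seq in hepatocytes from the livers of WT C57BL/6JJcl male mice aged 7 to 15 weeks, sorted by the fluorescence of the DNA dye Hoechst. The 15 libraries came from 4 mice and fell into 4 populations: 2n-whole, the diploid hepatocytes (4 libraries), 4n-whole, all tetraploid hepatocytes (4 libraries), and its subsets 4n-bottom, with lower Hoechst-height and enriched for binucleated cells (4 libraries), and 4n-top, with higher Hoechst-height and enriched for mononucleated cells (3 libraries, from mice 2, 3 and 4). All groups share the genotype, strain, sex and absence of treatment, and 4n-top and 4n-bottom are enriched rather than pure populations.

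Alcohol dehydrogenases oxidise alcohols and retinol to aldehydes, and aldehyde dehydrogenases oxidise the aldehydes to acids, so that ethanol passes through acetaldehyde to acetate and retinol passes through retinal to retinoic acid. Hepatocytes are the main site of ethanol oxidation and also take up and process retinol. Many genes of this kind are expressed unevenly along the liver lobule, between the portal vein and the central vein.

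Libraries held between 22049498 and 42096421 counts, and 3 counts in a library corresponded to between 0.0713 and 0.136 CPM (counts scaled to the size of the library). Summed CPM of 5 hepatocyte markers (Alb, Apoa1, Ttr, Serpina1c and Tat) was between 63396 and 90567, whereas 5 endothelial markers summed to 2.21 to 20.0 CPM, 5 Kupffer cell markers to 0.0623 to 7.64 CPM and 5 stellate cell markers to 1.68 to 5.32 CPM. The median Kupffer cell sum was 4.40 CPM in 2n-whole, 1.02 in 4n-whole, 1.15 in 4n-bottom and 0.488 in 4n-top, and none of these markers was called. Of 5 cholangiocyte markers, Krt7 and Epcam were each at 0 in 11 of the 15 libraries and Krt19 in 7, whereas Sox9 and Spp1 were detected in all 15. Their sum was 34.6 to 47.4 CPM in 2n-whole and at most 32.04 CPM in the 4n libraries. In 4n-whole 2 of the 5 (Spp1 and Sox9) were called lower than in 2n-whole, against 1.73% of all genes tested. The part of the cholangiocyte and Kupffer cell markers in the results below was not tested. Mouse 2 stood apart in 4n-whole and 4n-top in a list of 12 pericentral genes, those expressed near the central vein. The summed level of this list in mouse 2 was 1152 CPM in 4n-whole and 1193 in 4n-top, against 3483 to 3942 and 3784 to 4212 CPM in the libraries of the other mice. In 2n-whole (781 CPM) and 4n-bottom (1153) mouse 2 was close to mouse 1, which had 694 and 1270 CPM.

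The genes are placed as GENCODE M39 gives them on GRCm39. Adh1 (chr3:137966752-137996462), Adh4 (chr3:138121125-138137305) and Adh5 (chr3:138148828-138161260) lie in this order on the plus strand of chromosome 3, with Adh6a and Adh6b between Adh1 and Adh4. Aldh1a1 (chr19:20469539-20622825, plus strand) and Aldh1a7 (chr19:20667107-20704932, minus strand) are neighbours on chromosome 19, and 91.6% of the bases of their aligned coding sequences are identical. Aldh1b1 (chr4:45798886-45804604, plus strand) has 2 exons, and 69.0% of its coding bases match those of Aldh2 (chr5:121704090-121732089, minus strand). Aldh3a2 (chr11:61114243-61158841) and Rdh7 (chr10:127719896-127724686) are on the minus strand. Of the 50-base stretches of the Rdh7 transcript, 13.2% also occur in transcripts of other genes, among them Rdh1 and Hsd17b6, so reads of Rdh7 may be shared with relatives. For Aldh1a1 and Aldh1a7 these shares were 3.24% and 3.38%, and for the other 6 genes at most 0.397%. Exons of Adh1, Adh5, Aldh1a1, Aldh2 and Aldh3a2 overlap noncoding transcripts on the opposite strand, and the strand setting of the counting is not given in the sources used here.

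RefSeq promoter windows on GRCm38.p6 were found for 8 of the 9 genes. The 250 bases before the start are shown for Aldh1b1 and Aldh3a2, whose RNA differed most between populations, and for Aldh1a1 and Aldh1a7, the paralogues whose RNA did not follow each other. Capitals mark matches, on either strand, to 6 motifs, each searched by its letters. They were the TATA box as TATAAA, the CCAAT box by the letters in its name, the GC box as GGGCGG, a nuclear receptor half-site as AGGTCA, the core of TCF/LEF sites as CTTTGA and the core of antioxidant response elements as TGACNNNGC.
Aldh1b1 (chr4:45798772-45799021, plus strand): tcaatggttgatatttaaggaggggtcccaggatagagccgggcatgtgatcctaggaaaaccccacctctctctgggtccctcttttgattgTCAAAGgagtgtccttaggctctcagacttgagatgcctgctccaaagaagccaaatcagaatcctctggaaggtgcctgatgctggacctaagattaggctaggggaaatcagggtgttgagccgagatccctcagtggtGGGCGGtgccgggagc
Aldh3a2 (chr11:61267187-61267436, minus strand): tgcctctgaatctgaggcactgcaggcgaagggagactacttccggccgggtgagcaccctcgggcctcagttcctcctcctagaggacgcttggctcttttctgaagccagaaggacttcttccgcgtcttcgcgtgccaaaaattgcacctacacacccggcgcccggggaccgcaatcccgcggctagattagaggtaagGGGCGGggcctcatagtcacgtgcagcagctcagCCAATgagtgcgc
Aldh1a1 (chr19:20601718-20601967, plus strand, 1 of 2 windows): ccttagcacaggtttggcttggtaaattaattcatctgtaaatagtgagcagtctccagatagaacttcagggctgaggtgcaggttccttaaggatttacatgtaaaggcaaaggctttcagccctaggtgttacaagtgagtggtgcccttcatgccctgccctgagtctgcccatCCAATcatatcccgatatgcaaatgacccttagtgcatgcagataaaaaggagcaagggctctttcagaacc
Aldh1a7 (chr19:20727557-20727806, minus strand): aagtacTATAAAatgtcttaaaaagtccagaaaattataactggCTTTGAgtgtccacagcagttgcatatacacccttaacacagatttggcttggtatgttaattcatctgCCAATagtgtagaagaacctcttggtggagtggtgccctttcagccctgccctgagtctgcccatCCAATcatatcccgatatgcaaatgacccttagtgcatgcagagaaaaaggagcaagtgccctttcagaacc
The windows of Aldh1a1 and Aldh1a7 carry a CCAAT box beginning 72 bases before the start in both, and 94 of their last 100 bases are identical. The other RefSeq window of Aldh1a1 (chr19:20492333-20492582) shares 30 of its last 100 bases with that of Aldh1a7 and holds 3 TCF/LEF cores and no CCAAT box. The window of Aldh1b1 holds a GC box and a TCF/LEF core, and that of Aldh3a2 a GC box and a CCAAT box. Of 32851 RefSeq windows of this length, 32.7% hold a GC box, 33.8% a CCAAT box, 13.8% a TCF/LEF core, 12.37% a TATA box, 14.0% a nuclear receptor half-site and 10.2% an antioxidant response element core. These are matches of letters, and no binding was measured.

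Levels are compared between genes as CPM per kilobase of the canonical transcript. In 2n-whole, Adh1, the class I alcohol dehydrogenase that carries most ethanol oxidation, was highest at 656 ± 152 CPM per kb (SD, n = 4). Rdh7, a retinol dehydrogenase of the short-chain family, followed at 314 ± 24.7 CPM per kb and Aldh2, the mitochondrial enzyme that clears acetaldehyde, at 210.3 ± 15.1 CPM per kb. Aldh1a1 and Aldh1b1 were at 121 ± 23.4 and 118 ± 12.8 CPM per kb, a difference smaller than their spread. Adh5 (88.2 ± 4.47), Adh4 (49.5 ± 13.5) and Aldh1a7 (36.6 ± 8.03) came next, the last pair again within their spread, and Aldh3a2 was lowest at 8.31 ± 3.30 CPM per kb. With the summed length of all annotated exons in place of the transcript, Adh1, Rdh7 and Aldh2 were still the highest and Aldh3a2 the lowest, but Aldh1b1 (118 CPM per kb) stood above Aldh1a1 (69.7) and Adh5 (20.4) below Adh4 (32.3). In 4n-whole the level of Aldh1b1 was 54.4 ± 17.4 CPM per kb, which put it beside Adh4 (53.4 ± 13.0), while Aldh3a2 was still lowest at 25.5 ± 10.8. Summed over the 9 genes, the level scaled by TMM was 3862 ± 387 CPM in 2n-whole, 4196 ± 448 in 4n-whole, 3995 ± 570 in 4n-bottom and 4638 ± 257 (n = 3) in 4n-top. The 4n-top mean lacks mouse 1, whose library had the lowest sum of 2n-whole (3463 CPM), of 4n-whole (3797) and of 4n-bottom (3233), so these means rest on different sets of mice. As a share of all counts of a library, without that scaling, the sum was 0.354% ± 0.0280 in 2n-whole, 0.446% ± 0.0595 in 4n-whole, 0.400% ± 0.0665 in 4n-bottom and 0.481% ± 0.0314 in 4n-top.

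**Figure D1:**
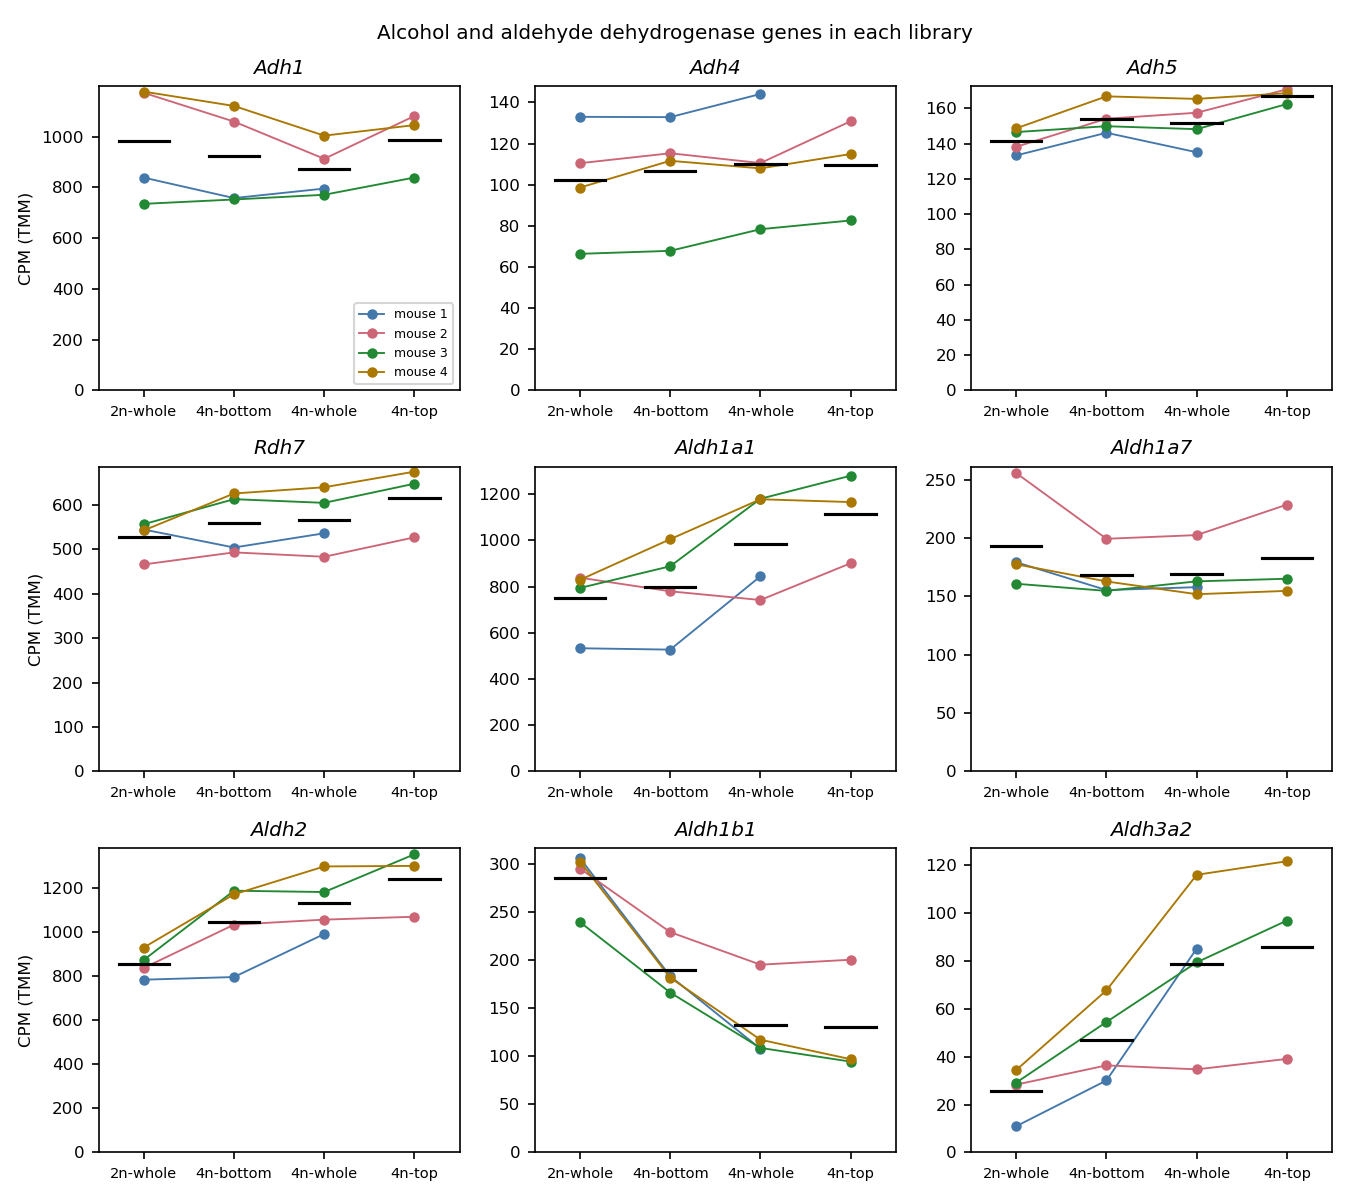
CPM of each gene (linear axis from 0) in the 15 libraries, with populations on the horizontal axis; coloured points joined by a line are libraries of one mouse, mouse 1 has no 4n-top library, and black bars are population means. Aldh1b1 falls and Aldh3a2 rises from 2n-whole to 4n-whole in every mouse, least in mouse 2, while Adh1 and Adh4 are separated mainly by mouse.

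How diploid and tetraploid hepatocytes differ was asked by setting 4n-whole against 2n-whole. Of the 9 genes, 2 passed the test, Aldh3a2 (higher in 4n-whole) and Aldh1b1 (lower). A call required an adjusted p under 0.05 in edgeR's quasi-likelihood test, with the mouse as a block, and an absolute log2 fold change above 0.5; over all genes tested 3.47% were called, 1.74% higher and 1.73% lower in 4n-whole. The median log2 fold change of the 9 genes was 0.10, against -0.01 over all genes tested. Since the 9 genes were chosen with earlier results known, such shares are not a neutral comparison, here or in the comparisons below.

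Aldh1b1 encodes a mitochondrial aldehyde dehydrogenase that acts on acetaldehyde and other short aldehydes. Its level in mice 1, 2, 3 and 4 was 306, 296, 240 and 303 CPM in 2n-whole, and 108, 196, 109 and 117 CPM in 4n-whole. The populations did not overlap, and mouse 2 kept the highest level in 4n-whole. The level in 4n-bottom was 184, 229, 166 and 182 CPM, and in 4n-top it was 201, 94.6 and 97.1 CPM in mice 2, 3 and 4. All 4n-bottom libraries therefore lay below every 2n-whole library, and 4n-top of mouse 2 lay within the range of 4n-bottom. Aldh1b1 RNA was 2.24-fold lower in 4n-whole than in 2n-whole (log2 fold change -1.16, SE 0.12, edgeR adjusted p = 5.35e-07), and lower in 4 of 4 mice by between 0.60 and 1.51 on the log2 scale. Without mouse 2 the log2 fold change was -1.35.

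Aldh3a2 encodes the microsomal fatty aldehyde dehydrogenase, which oxidises long-chain aldehydes. Its level was 10.9, 28.3, 29.1 and 34.4 CPM in 2n-whole, and 85.1, 34.7, 79.3 and 116 CPM in 4n-whole, in mice 1 to 4. The 4n-whole library of mouse 2 was level with the highest 2n-whole library, and those of the other 3 mice were well above. In 4n-bottom the level was 30.0, 36.3, 54.4 and 67.7 CPM, and in 4n-top it was 39.0, 96.8 and 122 CPM. In mice 3 and 4 the order was the same, with 2n-whole lowest, then 4n-bottom, 4n-whole and 4n-top, and in mouse 2 the 3 tetraploid libraries lay within 34.7 to 39.0 CPM. Aldh3a2 RNA was 3.04-fold higher in 4n-whole than in 2n-whole (log2 fold change 1.60, SE 0.23, edgeR adjusted p = 3.96e-05), and higher in 4 of 4 mice, by 0.29 in the mouse with the smallest difference and 2.96 in the mouse with the largest. Without mouse 2 the log2 fold change was 2.04, and in a fit that ignored the mouse it was 1.62 with an adjusted p of 0.0982.

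Aldh2 and Aldh1a1, the latter a cytosolic enzyme that oxidises retinal and acetaldehyde, had an adjusted p under 0.05 but a fold change below the limit. Aldh2 was at 784, 837, 873 and 930 CPM in 2n-whole and at 991, 1056, 1181 and 1297 CPM in 4n-whole. The populations did not overlap, and the difference was nearly the same in every mouse, between 0.34 and 0.48 on the log2 scale. The fitted log2 fold change of Aldh2 was 0.40 (SE 0.08, edgeR adjusted p = 0.00336). Aldh1a1 was at 533, 839, 794 and 829 CPM in 2n-whole and at 845, 742, 1180 and 1178 CPM in 4n-whole, so that it was higher in 3 of 4 mice and lower in mouse 2. Its log2 fold change was 0.39 (SE 0.10, edgeR adjusted p = 0.0249), and 0.58 with an adjusted p of 3.20e-05 without mouse 2, which put it past the fold limit.

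The other 5 genes did not pass the test. Adh1 was at 838, 1173, 735 and 1177 CPM in 2n-whole and at 795, 912, 771 and 1004 CPM in 4n-whole, and its fitted difference was -0.15 (log2) with a 95% interval from -0.32 to 0.02. Adh4, the class II enzyme, which acts on retinol and larger alcohols, differed by 0.12 (interval -0.06 to 0.30) and was higher in 4 of 4 mice. Adh5, the class III enzyme, which removes formaldehyde bound to glutathione, differed by 0.09 (-0.07 to 0.26). Each of these intervals includes 0 and lies inside the fold limit of 0.5. Rdh7 differed by 0.10 (-0.06 to 0.26). Aldh1a7, a rodent paralogue of Aldh1a1, differed by -0.18 (-0.36 to -0.01, unadjusted p = 0.0414, adjusted p = 0.221, edgeR).

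**Figure D2:**
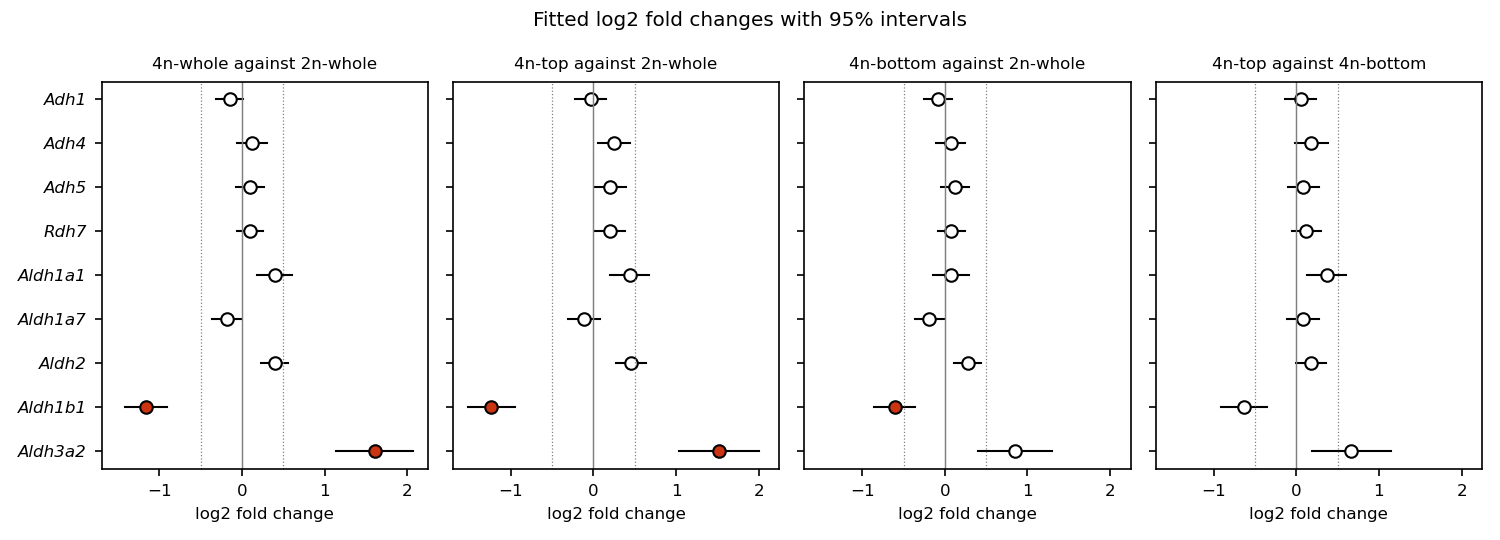
Fitted log2 fold changes (horizontal axis) of the 9 genes in 4 comparisons, with 95% intervals as lines; red points passed the test, open points did not, and dotted lines mark the fold limit of 0.5 in either direction. Aldh1b1 is left of 0 and Aldh3a2 right of 0 in all 4 panels, and the 4 alcohol and retinol dehydrogenases stay within the dotted lines.

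Setting 4n-top against 4n-bottom compares tetraploid populations enriched for cells with 1 nucleus and for cells with 2 nuclei, neither of them pure. None of the 9 genes was called by edgeR, where 0.0114% of all genes tested were called, 0.00572% in each direction. At an unadjusted p under 0.05 there were 3 of the 9 genes, Aldh1b1, Aldh1a1 and Aldh3a2, and 2.79% of all genes tested. Aldh1b1 was 1.55-fold lower in 4n-top, with a log2 fold change of -0.63 (SE 0.14), lower in 3 of 3 mice, an unadjusted p of 8.07e-05 and an adjusted p of 0.266 in edgeR. Its p was number 5 from the smallest among the 17488 genes. Aldh1b1 was called by DESeq2 with the mouse in the model (adjusted p = 0.000542), which called 7.64% of the 39304 genes it tested. It was also called by DESeq2 after ComBat-seq adjustment for the mouse (adjusted p = 0.000785), a fit without a mouse term that called 18 of 17930 genes (0.1%).

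Aldh3a2 was 1.59-fold higher in 4n-top than in 4n-bottom, with a log2 fold change of 0.67 (SE 0.23, edgeR adjusted p = 1.00), and higher in 3 of 3 mice by between 0.10 and 0.85. Mouse 2 again had the smallest difference. Without mouse 2, which leaves 2 libraries of 4n-top, edgeR called both genes, Aldh1b1 at -0.87 (adjusted p = 1.66e-05) and Aldh3a2 at 0.89 (adjusted p = 0.00234), among 29 of 18413 genes called (0.157%). Aldh1a1 was at 780, 888 and 1005 CPM in 4n-bottom and at 901, 1280 and 1166 CPM in 4n-top of mice 2, 3 and 4, higher in each, with a log2 fold change of 0.37 (SE 0.11, edgeR adjusted p = 1.00). The corresponding log2 differences were 0.18 for Aldh2 (interval -0.0028 to 0.36), 0.18 for Adh4 (-0.01 to 0.38), 0.12 for Rdh7 (-0.05 to 0.30), 0.08 for Adh5 (-0.10 to 0.27), 0.08 for Aldh1a7 (-0.12 to 0.27) and 0.05 for Adh1 (-0.13 to 0.24).

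Each tetraploid subset was also compared with 2n-whole. These comparisons use the same 2n-whole libraries as the one above and so are not independent of it. In 4n-bottom 1 of the 9 genes was called, Aldh1b1, which was 1.52-fold lower (log2 fold change -0.61, SE 0.12, edgeR adjusted p = 0.011, lower in 4 of 4 mice), where 0.463% of all genes were called, 0.234% higher and 0.229% lower. The call was lost without mouse 1 (-0.56, edgeR adjusted p = 0.0931) and without mouse 4 (-0.57, adjusted p = 0.052), with little change in the fold. Aldh3a2 was 1.80-fold higher in 4n-bottom (log2 fold change 0.85, SE 0.22, higher in 4 of 4 mice) with an edgeR adjusted p of 0.0874, and it was called without mouse 2 (1.06, adjusted p = 2.58e-06).

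In 4n-top 2 of the 9 genes were called against 2n-whole, where 0.961% of all genes were called, 0.44% higher and 0.52% lower. Aldh1b1 was 2.35-fold lower (log2 fold change -1.24, SE 0.14, edgeR adjusted p = 2.99e-06) and Aldh3a2 2.86-fold higher (1.51, SE 0.24, edgeR adjusted p = 0.000246), each in the same direction in 3 of 3 mice. Neither was called when the mouse was left out of the model, with adjusted p of 0.0963 and 0.126. Aldh2 was 0.45 higher on the log2 scale (SE 0.09, edgeR adjusted p = 0.00399) and Aldh1a1 0.44 higher (SE 0.11, edgeR adjusted p = 0.0577), each in 3 of 3 mice. Without mouse 2, Aldh1a1 was called as well (0.56, edgeR adjusted p = 0.000734). Adh4 (0.25), Adh5 (0.20) and Rdh7 (0.20) were higher in 3 of 3 mice with adjusted p of 0.275 to 0.386.

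When the populations were ordered by mean level, Aldh1b1 fell from 286 ± 31.2 CPM in 2n-whole to 190.4 ± 27.2 in 4n-bottom, 132 ± 42.3 in 4n-whole and 131 ± 60.6 in 4n-top. Only the first step separated neighbours without overlap. For Aldh3a2 the means were 25.7 ± 10.2, 47.1 ± 17.2, 78.8 ± 33.5 and 85.8 ± 42.3 CPM in the same order, and the libraries of every neighbouring pair overlapped. The ratio of Aldh3a2 to Aldh1b1 counts, both measured in the same library and so free of library size, was 0.0916 ± 0.0388 in 2n-whole, 0.255 ± 0.110 in 4n-bottom, 0.671 ± 0.347 in 4n-whole and 0.823 ± 0.556 in 4n-top. The ratio of Aldh1b1 to Aldh2, the 2 mitochondrial members, was 0.336 ± 0.0490, 0.187 ± 0.0459, 0.119 ± 0.0448 and 0.111 ± 0.0667. Aldh1a7 made up 20.8% ± 4.14 of the reads of Aldh1a1 and Aldh1a7 in 2n-whole, 18.0% ± 4.28 in 4n-bottom, 15.2% ± 4.59 in 4n-whole and 14.5% ± 5.01 in 4n-top. All these 4n-top means lack mouse 1, so they rest on a different set of mice. Mouse 1 had the lowest Aldh3a2 level and the highest Aldh1a7 share of 2n-whole (10.9 CPM and 25.2%) and of 4n-bottom (30.0 CPM and 22.8%).

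The 9 genes differed in how much of their variation lay between mice. In a split of the log2 CPM of the 15 libraries, the mouse accounted for 95.7% of the variance of Adh4, 82.5% of that of Adh1, 79.5% of that of Aldh1a7 and 70.1% of that of Rdh7. For Aldh1b1 the population accounted for 71.2% and the mouse for 19.9%, and for Aldh3a2 these shares were 49.9% and 28.7%. Since 4n-top lacks a mouse, the shares need not sum to 100%. Adh4 was at 133, 144 and 133 CPM in the 3 populations of mouse 1 and at 66.4 to 82.6 CPM in the 4 populations of mouse 3, so that no library of mouse 3 reached the lowest library of any other mouse. Adh1 was likewise at most 839 CPM in every library of mice 1 and 3 and at least 912 CPM in every library of mice 2 and 4.

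With the effect of the mouse removed, log2 CPM of Aldh3a2 and Aldh1b1 ran opposite to each other across the 15 libraries, with a Pearson correlation of -0.956, and -0.892 with it kept. Aldh1a1 and Aldh3a2 had a correlation of 0.874 (0.862 with the mouse effect kept), and Adh1 and Aldh1a7 of 0.803 (0.546). These values describe libraries that share 4 mice and 4 populations. With the mouse effect removed, the genes most like Aldh3a2 were Cyp7a1 (0.986), the rate-limiting enzyme of bile acid synthesis, Cyp2e1 (0.979), the microsomal ethanol oxidase, and Cyp2c37 (0.975). Those most like Aldh1b1 were Fam124a (0.974), Setd7 (0.964) and Hsd17b6 (0.962), a short-chain dehydrogenase of steroids and retinol. Aldh2 was most like Por (0.969), the reductase that serves cytochromes P450, Cyp8b1 (0.968) and Kif1b (0.963), and Aldh1a1 most like Eci2 (0.986), Slc16a10 (0.955) and Cyp2c29 (0.951). With the mouse effect kept, these 12 correlations were between 0.633 (Slc16a10) and 0.941 (Fam124a). For the other 5 genes, the most like gene was Tspan31 for Adh1 (0.961, and 0.215 with the mouse kept), Rps4x for Adh4 (0.923 and 0.0447), Triap1 for Adh5 (0.925 and 0.634), Zfp58 for Aldh1a7 (0.913 and 0.0782) and Hnrnpc for Rdh7 (0.920 and -0.0091).

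The pericentral list moved with these results. Of its 12 genes, 12 were called higher in 4n-whole than in 2n-whole, 7 in 4n-bottom and 8 in 4n-top. Of all genes tested, 1.74%, 0.234% and 0.44% were called higher in these comparisons. Between 4n-top and 4n-bottom 1 of the 12 was called, Glul, which was lower in 4n-top, against 0.00572% of all genes tested. In that last comparison 8 of the 12 had a log2 fold change above 0, and the median was 0.32, against 0.0010 over all genes tested. An unadjusted p under 0.05 in edgeR was seen for 8 of the 12, against 2.79% of all genes tested. Without mouse 2 edgeR called 6 of the 12 (Cyp1a2, Cyp2c29, Cyp2e1, Glul, Rgn and Slc1a2), against 0.157% of all genes tested. Without mouse 3 or mouse 4 it called 0 of the 12 and 0 of all genes tested. In mice 3 and 4 Glul fell from 141 and 211 CPM in 4n-bottom to 64.6 and 105 in 4n-top. Slc1a2 fell from 61.4 and 62.3 to 33.0 and 26.4 CPM, whereas Cyp1a2, Cyp2c29, Cyp2e1 and Rgn were higher in 4n-top of these mice. The summed pericentral level ranged from 694 to 1121 CPM in 2n-whole, 1152 to 3942 in 4n-whole, 1153 to 2762 in 4n-bottom and 1193 to 4212 in 4n-top. The 5 libraries with a sum of 3483 CPM or more were those with Aldh3a2 at 79.3 CPM or more and Aldh1b1 at 117 CPM or less. Cyp2e1 alone gave 1523 to 2188 CPM of the sum in these 5 libraries. It is also 1 of the genes most like Aldh3a2 (0.979), so the sum is weighted towards that gene. All 4 libraries of mouse 2 had a sum of 1193 CPM or less. Of 12 periportal genes, 2 were called lower in 4n-whole than in 2n-whole (Cyp2f2 and Hsd17b13), against 1.73% of all genes tested. In that comparison 9 of the 12 had an unadjusted p under 0.05 in edgeR, against 20.4% of all genes tested. There 2 had a log2 fold change above 0, and the median was -0.25. None was called by edgeR in the other comparisons, where 2 to 4 had an unadjusted p under 0.05, against 2.79% to 11.3% of all genes tested. Between 4n-top and 4n-bottom 1 of the 12 was above 0, and the median was -0.18. Without mouse 2, 3 were called in 4n-top against 2n-whole, against 1.29% of all genes tested. The part of lobular position in the differences of Aldh3a2 and Aldh1b1 was not tested. In bulk samples a smaller number of cells of a kind and less RNA per cell cannot be told apart.

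**Figure D3:**
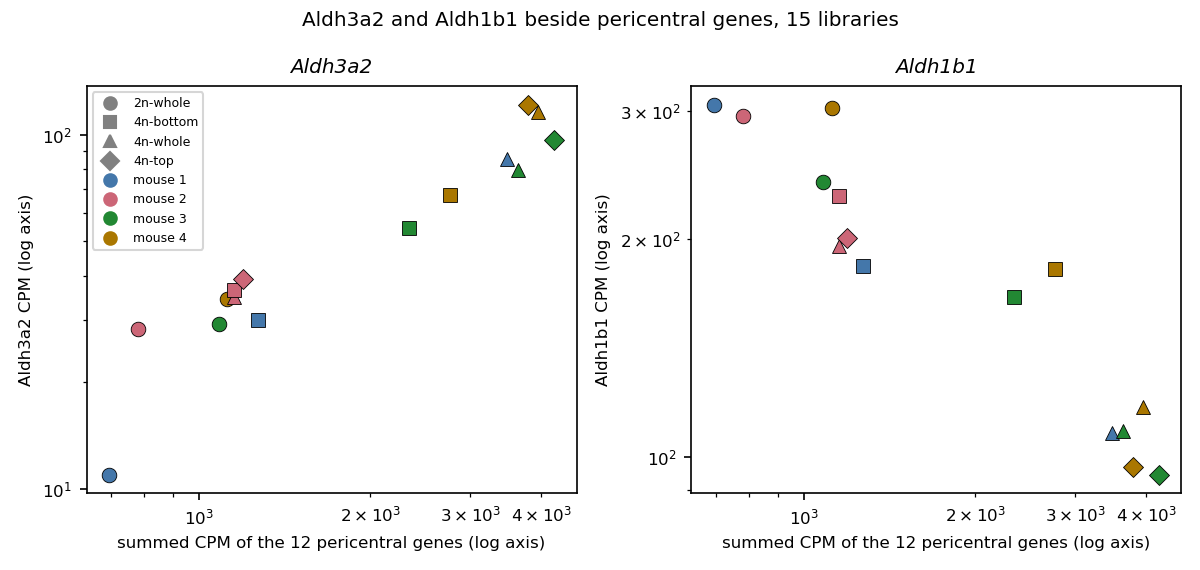
Level of Aldh3a2 (left) and Aldh1b1 (right) in CPM against the summed CPM of 12 pericentral genes, all on log axes; each point is 1 of the 15 libraries, with the shape giving the population and the colour the mouse. Libraries of mouse 2 stay at sums of at most 1193 CPM, with Aldh3a2 between 28.3 and 39.0 CPM and Aldh1b1 between 196 and 296 CPM. In the 5 libraries with sums of 3483 CPM or more, Cyp2e1 alone gave 1523 to 2188 CPM.

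The remaining genes of the same pathways were read from the same fit. Of 4 other alcohol dehydrogenases 2 were expressed highly enough to be tested, Adh7 and Adhfe1, and neither was called by edgeR in any of the 4 comparisons. Adhfe1, a mitochondrial hydroxyacid-oxoacid transhydrogenase, was at -0.49 in 4n-whole against 2n-whole (SE 0.12, edgeR adjusted p = 0.0128), just inside the fold limit, and it was called by DESeq2 with a mouse term and by edgeR without mouse 1 or without mouse 3. Of 16 other aldehyde dehydrogenases 11 were tested and none was called in any comparison by edgeR or by DESeq2, although 4 had an unadjusted p under 0.05 in 4n-whole against 2n-whole, as had 20.4% of all genes tested. The smallest p among them was that of Aldh16a1 (log2 fold change 0.43, edgeR adjusted p = 0.0284), which was called without mouse 1 or without mouse 3, followed by Aldh4a1, a mitochondrial enzyme of proline breakdown (0.29, adjusted p = 0.0631).

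Among 29 genes of retinoid handling 27 were tested, and in 4n-whole against 2n-whole 2 rose and 2 fell, where 3.47% of all genes tested were called. In edgeR 14 of the 27 had an unadjusted p under 0.05, against 20.4% of all genes tested, and 7 had an adjusted p under 0.05. Cyp26a1, which breaks down retinoic acid, was at 2.98, 11.6, 6.26 and 25.3 CPM in 2n-whole and at 8.50, 22.4, 11.43 and 52.0 CPM in 4n-whole. It was higher in each mouse, although the populations overlapped because the mice differed widely, and its log2 fold change was 1.08 (SE 0.13, edgeR adjusted p = 4.77e-06). It was also called higher in 4n-bottom (0.73) and in 4n-top (1.01) than in 2n-whole, the former not without mouse 4 (adjusted p = 0.152). Rdh9, a retinol dehydrogenase and a relative of Rdh7, was 2.05 higher on the log2 scale (SE 0.35, edgeR adjusted p = 0.000583) at levels of at most 6.23 CPM.

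Hsd17b6 fell by 0.71 on the log2 scale in 4n-whole (SE 0.10, edgeR adjusted p = 4.54e-05), lower in 4 of 4 mice, and was called lower in 4n-top as well. Dhrs9, a retinol dehydrogenase named after its values were seen, was at 15.7, 9.05, 2.50 and 7.79 CPM in 2n-whole of mice 1 to 4. In 4n-whole it was at 7.29, 2.57, 2.98 and 2.15 CPM, lower in mice 1, 2 and 4 and higher in mouse 3. Its fitted fall was 1.09 on the log2 scale (edgeR adjusted p = 0.0153), and it was not called when mouse 1, 2 or 4 was left out. Aox1, which can oxidise retinal, was at 0.43 (adjusted p = 0.00178), inside the fold limit. No retinoid gene was called by edgeR between 4n-top and 4n-bottom, where 2 had an unadjusted p under 0.05 (2.79% of all genes tested), and DESeq2 called none. Without mouse 2 edgeR called 1, Hsd17b6.

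Of 11 genes of alcohol and acetate handling 9 were tested. Cyp2e1 was at 264, 292, 513 and 429 CPM in 2n-whole and at 1523, 432, 1822 and 1602 CPM in 4n-whole, with the library of mouse 2 inside the 2n-whole range and the other 3 far above it. Its log2 fold change was 1.71 (SE 0.19, edgeR adjusted p = 1.35e-06), and 2.10 without mouse 2, when Cyp2e1 was also called between 4n-top and 4n-bottom. Acss3, a mitochondrial acyl-CoA synthetase for short acids, fell by 0.62 (SE 0.12, edgeR adjusted p = 0.00175), and Sord (0.37, adjusted p = 0.0116) and Cat (-0.20, adjusted p = 0.166) were not called. Cyp2e1 was called higher in 4n-bottom (0.91) and 4n-top (1.63) than in 2n-whole, and Acss3 lower in 4n-top (-0.58). The call of Cyp2e1 in 4n-bottom was lost without mouse 4 (edgeR adjusted p = 0.0724), and that of Acss3 in 4n-top without mouse 3 (0.103) or mouse 4 (0.462). Of 7 genes of fatty aldehyde and ether lipid handling 6 were tested and none was called by edgeR in any comparison, with 1 at an unadjusted p under 0.05, Agps (0.39, unadjusted p = 0.0136), in 4n-whole against 2n-whole. DESeq2 with the mouse in the model called 1 gene of this list, Far1, between 4n-top and 4n-bottom and in 4n-top against 2n-whole, where it called 7.64% and 11.3% of the 39304 genes it tested. Far1 was at 0 in every 4n-top library and at most 0.374 CPM in any library. In 4n-bottom it was above 0 only in mouse 1 (0.343 CPM), which has no 4n-top library.

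**Figure D4:**
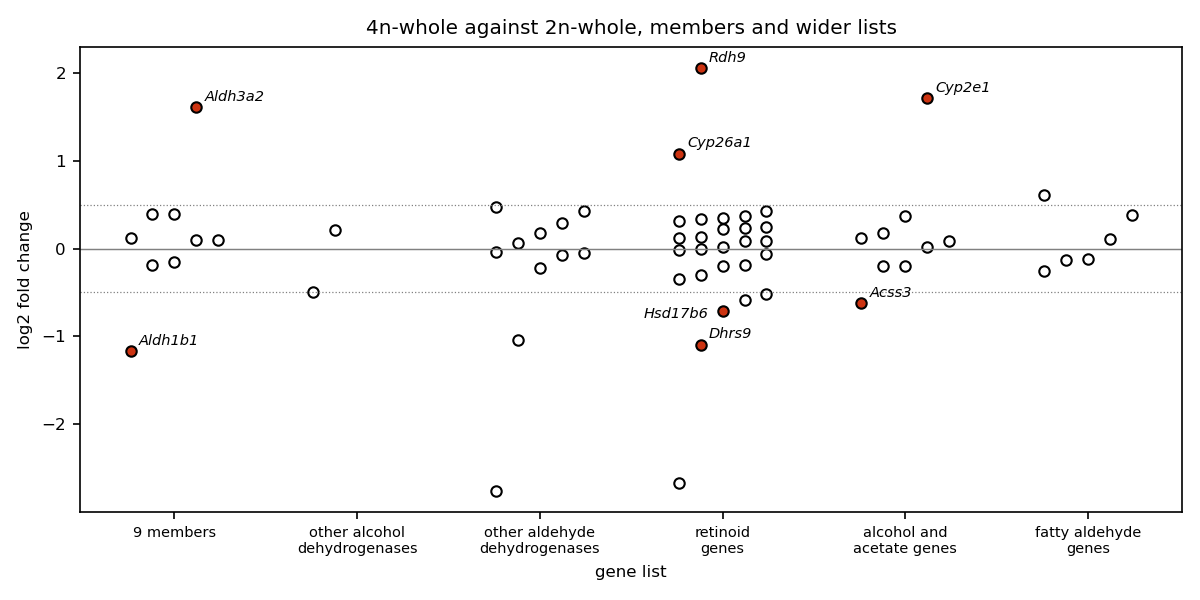
Log2 fold change between 4n-whole and 2n-whole (vertical axis) of the 9 genes and of the tested genes of 5 wider lists (horizontal axis); red points, named, passed the test and dotted lines mark the fold limit of 0.5. The called genes are Aldh3a2, Rdh9, Cyp26a1 and Cyp2e1 above 0, and Aldh1b1, Hsd17b6, Dhrs9 and Acss3 below 0.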

How the data were processed

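RNA from sorted hepatocytes was sequenced as 15 libraries made with the SMART-Seq Stranded Kit from 20 ng of total RNA. Alignment by the authors was to GRCm39 with STAR 2.7.11a, and featureCounts of Subread gave the deposited values, which are raw counts per gene without normalization. The annotation, strand setting and handling of read pairs and of reads with several positions are not given in the sources used here. Among counts of 1 to 10, 74.2% to 81.4% were even numbers, so 3 counts may stand for fewer fragments. The 4n-top library of mouse 1 was left out by the authors because of poor RNA quality and is not analysed here.

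Counts were filtered with filterByExpr (minimum count 10, minimum total 15), scaled by trimmed mean of M values (TMM) and fitted in edgeR 4.0.16 (R 4.3.3) by the quasi-likelihood F test over all 15 libraries, with population and mouse as terms and Benjamini-Hochberg adjustment over 17488 genes. The mouse came from the subject number in the labels, which marks the same animal; once population means were removed, the correlation within a mouse averaged 0.158 over 21 pairs of libraries. The libraries of a population came from different mice, and every mouse gave several populations. Levels are CPM with TMM scaling; correlations used log2 CPM with a prior count of 2 and the mouse effect removed with limma 3.58.1. The limit of 3 counts covers counting error only. Alternatives were no mouse term, DESeq2 1.42.0 with the mouse or after ComBat-seq (sva 3.50.0), other size factors, no filter, fewer genes or libraries, no fold limit and each mouse left out.

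The 9 genes, the wider lists and the tests were chosen with earlier results of these data known. From each wider list up to 4 genes with the smallest p in 4n-whole against 2n-whole or in 4n-top against 4n-bottom are named, and for likeness the 3 genes with the highest correlation. Akr1b3, 1 of the 11 genes of alcohol and acetate handling, has no row under that symbol. Coordinates, exon lengths and transcripts are from GENCODE M39, coding sequences were aligned with mafft, and promoter sequences are RefSeq windows on GRCm38.p6.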

Additional observations from a re-analysis of the deposited data

Results flagged for a closer look

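Within populations of 4 libraries, Dixon's criterion singled out 4 of 27 groups of values tested across the 9 genes, where chance gives about 1 in 20. In 2n-whole, Aldh1a1 in mouse 1 was 533 CPM, with the other 3 mice between 794 and 839 CPM. Also in 2n-whole, Aldh1b1 in mouse 3 was 240 CPM against 296 to 306 CPM, and Rdh7 in mouse 2 was 466 CPM against 543 to 557 CPM. In 4n-whole, Aldh1b1 in mouse 2 was 196 CPM, with the other 3 mice between 108 and 117 CPM. Of these libraries, the 4n-whole library of mouse 2 and the 2n-whole library of mouse 1 also had the lowest summed pericentral levels of their populations, 1152 and 694 CPM.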

How the results depend on the processing

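Of 396 recomputed log2 fold changes of the 9 genes, 373 kept their direction and their side of the threshold, 13 moved past it, 6 fell short of it and 4 changed sign. The 4 were near 0: Adh1 between 4n-top and 4n-bottom without mouse 3 (-0.00228), Adh1 in 4n-top against 2n-whole without the mouse as a replicate block (0.0111) and without mouse 4 (0.0189), and Aldh1a1 in 4n-bottom against 2n-whole without mouse 4 (-0.00326). When each mouse was left out, these 3 results ranged from -0.00228 to 0.118, from -0.123 to 0.0189 and from -0.00326 to 0.130. The number of the 9 genes called in 4n-whole against 2n-whole was 2, and became 4 with no fold limit, 1 without the replicate block, and 2 to 3 when each mouse was left out. Between 4n-top and 4n-bottom it was 0, and became 1 by DESeq2 with the block or after ComBat-seq, 2 with no filter on low counts, 2 with only the compared libraries, and 0 to 2 when each mouse was left out. In 4n-bottom against 2n-whole it was 1, and became 0 without the block, 2 with no filter, 2 with only the compared libraries, and 0 to 2 when each mouse was left out. In 4n-top against 2n-whole it was 2, and became 0 without the block and 2 to 3 when each mouse was left out. The cause was not tested. Over all genes the calls in the order of these comparisons were 607, 2, 81 and 168 with the block and 40, 0, 0 and 2 without it. Without a filter they were 709, 25, 145 and 261, with the compared libraries alone 305, 15, 92 and 300, with DESeq2 after ComBat-seq 1160, 18, 275 and 538, and with DESeq2 and the block, on 39304 genes without a filter, 4606, 3003, 3867 and 4433. Aldh1b1 without the block remained called in 4n-whole (adjusted p = 0.0394, edgeR). The calls of Cyp26a1, Rdh9, Hsd17b6, Dhrs9, Cyp2e1 and Acss3 in 4n-whole were all lost without it (adjusted p of 0.0982 to 0.561). The lowest level of the 9 genes, 10.9 CPM for Aldh3a2 in 2n-whole of mouse 1, was far above the limit of 3 counts. The part of depth in the calls was not tested.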

Other observations

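Cyp26a1, which breaks down retinoic acid, differed more between mice than between populations. Its mean over the populations of a mouse was 5.82 CPM in mouse 1, 17.7 in mouse 2, 10.42 in mouse 3 and 41.9 in mouse 4. The order of the mice was the same within 2n-whole, 4n-whole and 4n-bottom, with mouse 4 highest and mouse 1 lowest, and within 4n-top, which lacks mouse 1, mouse 4 was highest and mouse 3 lowest. Adh4 gave another order of the mice, with means of 137, 117, 73.8 and 108 CPM in mice 1 to 4.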
